A study of Homo sapiens with 6 samples.

Results

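Factors that assemble the large (60S) subunit of the ribosome were compared between 83 cells that overexpress ApoD and control cells of the same line. The factors are a list of 48 gene symbols chosen by their known part in 60S biogenesis, taken as rows of a count table of 21676 genes. All 48 had a row, and all 48 passed the filter on low counts. The lowest count of any of them in any library was 97, and 47 had a mean count over 1000.

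RNA was sequenced from 3 libraries of cells with ApoD overexpression and 3 control libraries. The submitters describe the 83 line as a SACC cell, an abbreviation that usually stands for salivary adenoid cystic carcinoma. ApoD is apolipoprotein D, a secreted carrier of small lipids. The labels state neither how the gene was introduced, nor what the controls received, nor whether either group is 1 clone. APOD had 628, 528 and 625 counts in the ApoD overexpression libraries, against 9, 8 and 2 counts in the controls (log2 fold change 6.63 ± 0.29 SE, edgeR adjusted p = 6.3e-08). Library totals ran from 37542568 to 40416964 counts. The libraries of a group carry numbers but are not said to be separate cultures, so the p-values reflect only how these libraries vary, and that variation may be technical. The epithelial genes EPCAM, KRT5, KRT7, KRT8 and KRT18 each had at least 8978 counts in every library. Of 10 epithelial and adenoid cystic carcinoma markers that were tested, 5 fell (EPCAM, CDH1, KRT14, TP63 and ACTA2) and KRT7 rose. Among all tested genes, 24.6% were called lower and 24.2% higher. The part of these marker changes in the results that follow was not tested. Of the adenoid cystic carcinoma markers, MYB had 198 to 484 counts and CNN1 1 to 11, while KIT and SOX10 were not analysed here.

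Assembly of the large subunit starts in the nucleolus on the long precursor of the ribosomal RNAs. Early factors fold the RNA and hold places for ribosomal proteins, helicases and GTPases move the particle from one stage to the next, and AAA ATPases strip factors off before an export adaptor carries the particle to the cytoplasm. Most factors leave the particle and are used again, so they are not parts of the finished ribosome. Their genes are widely known as a group that is transcribed more in growing cells.

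With ApoD overexpression, 46 of the 48 60S assembly factors rose and 0 fell by edgeR's quasi-likelihood test at an adjusted p under 0.05. Over all 14629 tested genes, 24.2% were called higher and 24.6% lower. The log2 fold change of ApoD overexpression over control was above 0 for all 48, with a median of 0.82 and a range from 0.11 to 1.88, beside a median of −0.02 over all tested genes. The rise was over 1.5-fold for 37 members, where 10.6% of tested genes were called and over 1.5-fold higher. The 3 ApoD overexpression libraries lay above all 3 controls for 45 members, and 29% of tested genes were separated in that direction. No member had all 3 ApoD overexpression libraries below the controls, where 29.7% of tested genes did. The members whose groups overlapped were RSL24D1, NMD3 and SDAD1. CCDC86, RRS1, BOP1 and EBNA1BP2 rose the most. RSL24D1 and NMD3 did not pass the test. In whole-culture RNA, a change in the mix of cells and a change of RNA per cell cannot be told apart.

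**Figure D1:**
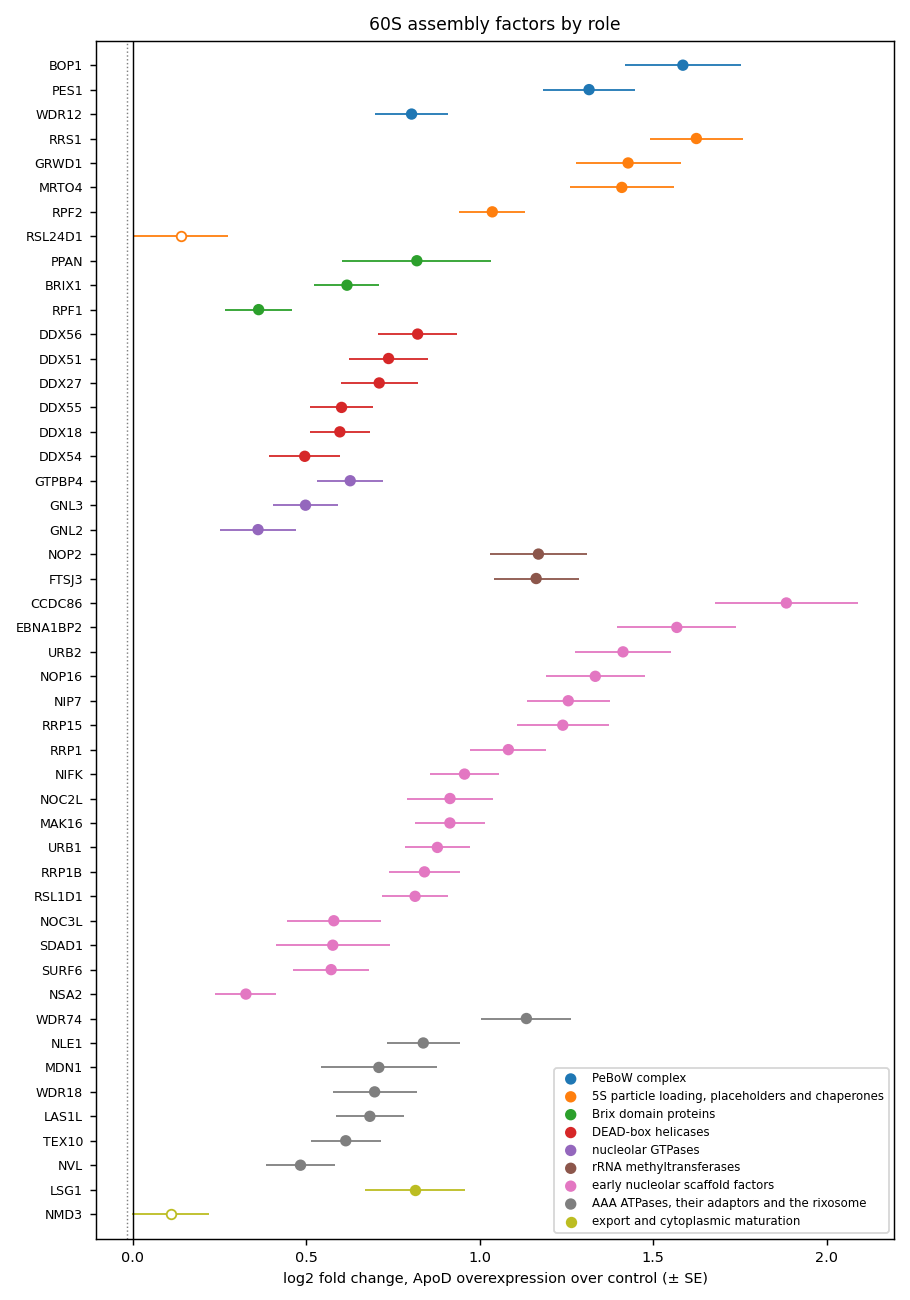
Log2 fold change of ApoD overexpression over control (x axis, point) with its SE (bar) for each of the 48 factors, in role classes by colour. Filled points passed edgeR's adjusted p of 0.05 and the 2 open points, RSL24D1 and NMD3, did not; the dotted line is the median of all tested genes, −0.02.

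Levels are given in CPM, counts scaled to a library of 1000000 after trimmed-mean (TMM) scaling. The 48 factors summed to 4913, 5573 and 5430.4 CPM in the ApoD overexpression libraries, against 3280.1, 2730.0 and 2749 CPM in the controls. Their sum was 1.82 times as high with ApoD overexpression as in controls, and the groups did not overlap. The share of all counts that fell on the 48 genes was 0.479, 0.527 and 0.521% with ApoD overexpression and 0.336, 0.283 and 0.293% in controls. The libraries of a group were not alike. Relative to the mean of the controls, the median member stood at 0.72, 0.90 and 0.88 on the log2 scale in ApoD overexpression libraries 1, 2 and 3, and at 0.14, −0.10 and −0.09 in control libraries 1, 2 and 3. Control library 1 was the highest control for 43 of the 48, and ApoD overexpression library 1 was the lowest of its group for 33. Over all tested genes the same 2 libraries lay nearest to the other group on the first principal component, which held 81.6% of the variance. Without control library 1 the members' median log2 fold change was 0.90, and 46 were called higher; without ApoD overexpression library 1 it was also 0.90, with 46 called higher.

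**Figure D2:**
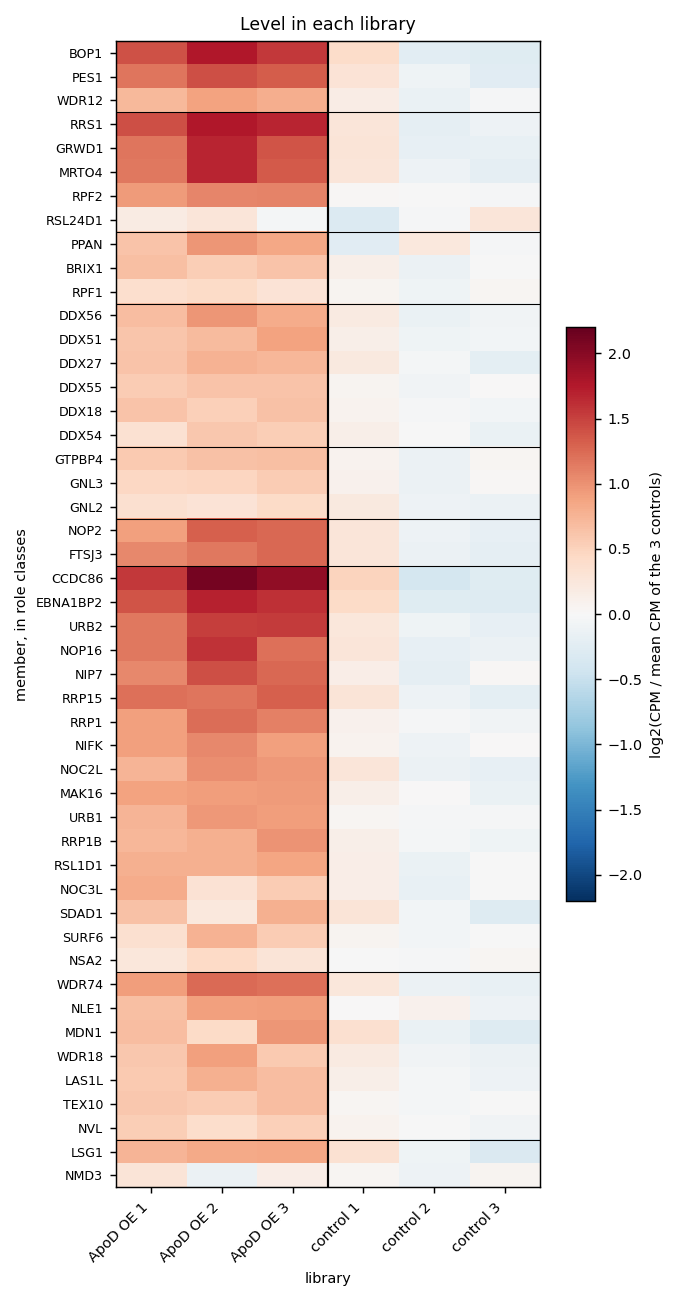
Each row is 1 of the 48 factors and each column 1 library, with ApoD overexpression libraries on the left and controls on the right of the vertical line. Colour gives log2 of the CPM over the mean CPM of the 3 controls, from blue (lower) to red (higher); nearly every row is red on the left, and among the controls library 1 is the reddest in 43 rows.

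Because the factors moved together, their promoters were read from RefSeq's table for GRCh38.p14, which gives 250 bases before to 50 after each gene's start. The table held 40 of the 48; BOP1, RRS1, RPF2, DDX18, URB2, RRP1B, MAK16 and RSL1D1 were not matched. The E-box CACGTG, which reads the same on both strands, stood in 13 of the 40 promoters (32.5%), and in 9.94% of the 11489 promoters of tested genes and 7.44% of all 27303 promoters in the table. Within 50 bases of the start it stood in 9 of the 40 (22.5%), beside 3.89% for tested genes. The ETS core CCGGAAG, searched on both strands, stood in 18 of the 40 (45%), beside 18.6% for tested genes. It stood within 50 bases of the start in 9 (22.5%), beside 10.9%. Either motif was found in 28 (70%), beside 26.5%. The Sp1 core GGGCGG stood in 24 (60%), beside 69%, CCAAT in 10 (25%), beside 36.5%, and TATAAA in 1, beside 5.79%. Such a match describes the letters only.

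The windows below run from 50 bases before to 50 after the start, 5′ to 3′ along the gene, with each E-box or ETS core in capitals. They are shown in order as the 5 largest rises with an E-box in the window, the 4 largest with an ETS core there, and the 2 factors that did not pass the test.
CCDC86, chr11:60842063-60842162, plus strand: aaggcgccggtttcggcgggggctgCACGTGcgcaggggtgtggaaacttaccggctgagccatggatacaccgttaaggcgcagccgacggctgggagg
MRTO4, chr1:19251755-19251854, plus strand: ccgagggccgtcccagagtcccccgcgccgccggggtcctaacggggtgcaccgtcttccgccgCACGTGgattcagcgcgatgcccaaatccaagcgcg
PES1, chr22:30591861-30591960, minus strand: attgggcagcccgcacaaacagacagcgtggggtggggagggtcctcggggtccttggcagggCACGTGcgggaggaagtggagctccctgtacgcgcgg
NOP2, chr12:6568242-6568341, minus strand: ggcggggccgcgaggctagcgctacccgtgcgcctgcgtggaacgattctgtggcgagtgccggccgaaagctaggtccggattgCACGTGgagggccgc
NLE1, chr17:35142254-35142353, minus strand: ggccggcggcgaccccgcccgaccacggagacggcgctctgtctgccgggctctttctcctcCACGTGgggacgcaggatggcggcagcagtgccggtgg
GRWD1, chr19:48445933-48446032, plus strand: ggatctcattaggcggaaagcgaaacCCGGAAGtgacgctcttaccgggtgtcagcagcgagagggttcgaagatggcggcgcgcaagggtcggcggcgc
NOP16, chr5:176388549-176388648, minus strand: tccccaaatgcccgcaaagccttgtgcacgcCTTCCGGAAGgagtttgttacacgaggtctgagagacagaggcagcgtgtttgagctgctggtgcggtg
RRP15, chr1:218285243-218285342, plus strand: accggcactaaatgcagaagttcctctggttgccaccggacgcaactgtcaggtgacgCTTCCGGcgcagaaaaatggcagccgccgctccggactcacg
WDR74, chr11:62839541-62839640, minus strand: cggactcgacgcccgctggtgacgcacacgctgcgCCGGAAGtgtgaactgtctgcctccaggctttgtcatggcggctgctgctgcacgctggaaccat
RSL24D1, chr15:55196892-55196991, minus strand: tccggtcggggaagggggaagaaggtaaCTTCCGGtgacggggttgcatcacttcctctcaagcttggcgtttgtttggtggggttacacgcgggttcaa
NMD3, chr3:161221261-161221360, plus strand: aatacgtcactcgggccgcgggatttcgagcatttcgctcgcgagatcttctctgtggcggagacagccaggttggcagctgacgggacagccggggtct
In the NOP16 window 2 ETS core matches on opposite strands overlap.

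Among the 40 factors with a matched promoter, those with and without each motif had close medians. The factors not matched, from DDX18 at 0.60 to RRS1 at 1.62 on the log2 scale, are left out of these medians. The 13 factors with an E-box had a median log2 fold change of 0.71 (0.36 to 1.88) and the 27 without one 0.80 (0.11 to 1.43). For the ETS core the medians were 0.70 over 18 with it and 0.81 over 22 without it. CCDC86, the largest rise, holds its E-box 25 bases before the start, and GNL2, with a log2 fold change of 0.36, holds one 3 bases after it.

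The PeBoW complex of PES1, BOP1 and WDR12 is needed to cut the precursor of the 28S and 5.8S rRNAs, and all 3 subunits rose. BOP1 had 156, 201 and 174 CPM in the ApoD overexpression libraries, against 78.1, 50.1 and 48.8 CPM in controls. Its log2 fold change was 1.59 ± 0.17 (SE, edgeR adjusted p = 1.96e-05). PES1 had 173, 203 and 192 CPM with ApoD overexpression and 93.5, 71.0 and 63.6 CPM in controls, a log2 fold change of 1.32 ± 0.13 (SE, adjusted p = 1.54e-05). In both genes control library 1 was the highest control, and it lay far below the lowest ApoD overexpression library. WDR12 also rose, with 62.6, 70.9 and 66.7 CPM with ApoD overexpression, against 42.6, 34.6 and 37.4 CPM in controls, and a log2 fold change of 0.80 ± 0.10 (SE, adjusted p = 8.08e-05).

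RRS1 and RPF2 bring the 5S rRNA with its 2 ribosomal proteins into the particle. RRS1 had 85.5, 108 and 103 CPM with ApoD overexpression and 38.5, 27.9 and 29.8 CPM in controls (log2 fold change 1.62 ± 0.13 SE, edgeR adjusted p = 4.14e-06). RPF2 had closely spaced controls, with 54.2, 59.2 and 60.6 CPM with ApoD overexpression, against 28.9, 28.1 and 27.8 CPM in controls, and a log2 fold change of 1.04 ± 0.09 (SE). GRWD1, a chaperone of the ribosomal protein RPL3, had 92.9, 132 and 108 CPM with ApoD overexpression and 50.3, 36.6 and 36.9 CPM in controls and rose by 1.43 ± 0.15 (SE) on the log2 scale. MRTO4 holds the place that the stalk protein RPLP0 takes later. It had 113, 161 and 128 CPM with ApoD overexpression, against 61.0, 46.6 and 43.9 CPM in controls and rose by 1.41 ± 0.15 (SE). RSL24D1, which holds the place of RPL24, did not pass the test. It had 98.8, 105 and 84.0 CPM with ApoD overexpression and 70.8, 85.3 and 105 CPM in controls (log2 fold change 0.14 ± 0.14 SE, adjusted p = 0.422). Control library 3 and ApoD overexpression library 2 were the highest for this gene and nearly equal, and the groups overlapped. With the abundance trend removed its log2 fold change was −0.02.

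BRIX1, RPF1 and PPAN share the Brix domain, an RNA-binding fold that RPF2 also carries. BRIX1 had 146, 134 and 142 CPM with ApoD overexpression and 100.1, 84.1 and 90.7 CPM in controls (log2 fold change 0.62 ± 0.09 SE, edgeR adjusted p = 0.000231). RPF1 had 49.6, 51.4 and 47.1 CPM with ApoD overexpression, against 39.9, 35.8 and 39.4 CPM in controls, a small rise of 0.36 ± 0.10 (SE, adjusted p = 0.00781) in which the groups did not overlap. Without control library 2 the call of RPF1 was lost, at an adjusted p of 0.0512 (log2 fold change 0.32). PPAN had the fewest counts of the 48, with 4.37, 5.57 and 5.11 CPM with ApoD overexpression, against 2.40, 3.34 and 2.78 CPM in controls, and a log2 fold change of 0.82 ± 0.22 (SE, adjusted p = 0.00772). Its exons overlap a read-through gene in GENCODE 29, PPAN-P2RY11, so its count depends on how the authors assigned shared reads.

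All 6 DEAD-box RNA helicases rose, by 0.50 to 0.82 on the log2 scale. These ATP-driven enzymes open RNA duplexes and clear small nucleolar RNAs from the precursor. DDX56 led, with 113, 139 and 124 CPM in ApoD overexpression libraries and 81.4, 64.0 and 67.5 CPM in controls (log2 fold change 0.82 ± 0.11 SE, edgeR adjusted p = 0.000121). DDX51 had 34.2, 36.1 and 41.2 CPM with ApoD overexpression, against 24.5, 20.9 and 21.5 CPM in controls and rose by 0.74 ± 0.11 (SE). DDX27 had 147, 160.0 and 158 CPM with ApoD overexpression, against 110.3, 91.8 and 81.9 CPM in controls and rose by 0.71 ± 0.11 (SE). In each of the 6 the groups were separated, and the other 3, DDX55, DDX18 and DDX54, had log2 fold changes of 0.60, 0.60 and 0.50.

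All 3 nucleolar GTPases rose, each by less than the median of the 48; they bind the particle and let it move on to its next stage. GTPBP4 had 76.8, 80.8 and 82.4 CPM with ApoD overexpression and 54.9, 47.2 and 53.4 CPM in controls (log2 fold change 0.63 ± 0.09 SE, edgeR adjusted p = 0.000219). GNL3, also called nucleostemin, had 134, 137 and 146 CPM with ApoD overexpression, against 106, 89.8 and 99.7 CPM in controls and rose by 0.50 ± 0.09 (SE, adjusted p = 0.000893). GNL2 had 77.0, 73.5 and 80.7 CPM with ApoD overexpression, against 70.0, 55.3 and 54.8 CPM in controls, with a log2 fold change of 0.36 ± 0.11 (SE, adjusted p = 0.0169). For GNL2 the highest control came close to the lowest ApoD overexpression library, and the call was lost without control library 2 (log2 fold change 0.31, adjusted p = 0.087) and without control library 3. It was also lost under scaling by library totals (0.25) and after removal of the abundance trend (0.23).

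Both rRNA methyltransferases rose over 2-fold. NOP2, which methylates a cytosine of the 28S rRNA, had 185, 248 and 239 CPM in the ApoD overexpression libraries, against 119.7, 91.9 and 87.5 CPM in controls (log2 fold change 1.17 ± 0.14 SE, edgeR adjusted p = 4.3e-05). FTSJ3, which methylates ribose, had 147, 157 and 168 CPM with ApoD overexpression, against 84.6, 64.5 and 61.5 CPM in controls, and a log2 fold change of 1.16 ± 0.12 (SE, adjusted p = 1.91e-05). The lowest ApoD overexpression library of each lay above the highest control, which was control library 1.

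The class of scaffold factors holds 17 genes, mostly of the early nucleolar steps, with a few such as SDAD1 and NSA2 whose yeast relatives act later. All 17 rose, by 0.33 to 1.88 on the log2 scale, and 13 of them by over 1.5-fold. CCDC86, the human relative of yeast Cgr1, had 109.7, 159.7 and 144 CPM with ApoD overexpression and 52.2, 28.6 and 31.2 CPM in controls. Its log2 fold change of 1.88 ± 0.21 (SE, edgeR adjusted p = 2.47e-05) was the largest of the 48, and its controls were spread the most for their mean, with library 1 well above the other 2. EBNA1BP2, the relative of yeast Ebp2, had 198, 244 and 229 CPM with ApoD overexpression, against 101.4, 62.5 and 62.0 CPM in controls and rose by 1.57 ± 0.17 (SE). URB2, which joins the particle early with URB1, had 61.5, 79.1 and 79.9 CPM with ApoD overexpression, against 32.8, 25.7 and 24.3 CPM in controls and rose by 1.41 ± 0.14 (SE). URB1 rose by 0.88. NOP16, NIP7 and RRP15, which act in the nucleolar steps, had log2 fold changes of 1.33, 1.26 and 1.24. NIFK, which binds the proliferation antigen Ki-67, rose by 0.96. NOC2L, which travels with the particle as part of the Noc complexes, and MAK16, a nucleolar factor that joins early in yeast, rose by 0.91 each. RSL1D1, a nucleolar protein with a ribosomal L1 domain, rose by 0.81.

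RRP1 and its paralog RRP1B, relatives of a yeast rRNA processing factor, both rose. RRP1 had 56.1, 70.6 and 65.0 CPM in ApoD overexpression libraries and 32.3, 29.5 and 28.7 CPM in controls (log2 fold change 1.08 ± 0.11 SE, edgeR adjusted p = 1.5e-05). RRP1B had 121, 125 and 145 CPM with ApoD overexpression and 79.1, 70.5 and 68.5 CPM in controls (log2 fold change 0.84 ± 0.10 SE, adjusted p = 4.8e-05). The smallest rises of the class were those of the Noc protein NOC3L, of SDAD1, whose yeast relative acts late in the nucleus, of the nucleolar RNA-binding protein SURF6, and of NSA2, a nuclear 60S factor in yeast, at 0.58, 0.58, 0.57 and 0.33. SDAD1 was called although its groups overlapped, with 42.0, 31.6 and 46.1 CPM with ApoD overexpression and 32.7, 25.7 and 21.9 CPM in controls (adjusted p = 0.0119). ApoD overexpression library 2 lay below control library 1. NSA2 had 191, 219.8 and 197 CPM with ApoD overexpression, against 161, 158 and 166 CPM in controls, and its call was lost under scaling by library totals and after removal of the abundance trend, where its log2 fold changes were 0.21 and 0.13.

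The 7 AAA ATPases, adaptors and rixosome subunits all rose. MDN1 is a very large AAA ATPase that pulls factors off the particle, and NLE1 is the adaptor that it grips. MDN1 had 129.7, 108.7 and 160.1 CPM with ApoD overexpression and 103, 73.3 and 67.0 CPM in controls (log2 fold change 0.71 ± 0.17 SE, edgeR adjusted p = 0.00412). Its ApoD overexpression library 2 was only slightly above control library 1. NLE1 had 55.6, 65.7 and 66.5 CPM with ApoD overexpression, against 35.2, 37.3 and 32.6 CPM in controls and rose by 0.84 ± 0.11 (SE). WDR74, the partner of the AAA ATPase NVL, had 82.2, 102 and 100.3 CPM with ApoD overexpression, against 51.6, 39.6 and 38.6 CPM in controls and rose by 1.13 ± 0.13 (SE, adjusted p = 3.27e-05). NVL itself had a log2 fold change of 0.48. LAS1L, the endonuclease that opens the spacer before the 28S rRNA, rose by 0.68, and WDR18 and TEX10 of the rixosome, the complex that LAS1L acts with, by 0.70 and 0.61.

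Of the 2 factors of export and cytoplasmic maturation 1 rose. NMD3, the adaptor that takes the particle through the nuclear pore, had 84.3, 63.6 and 76.3 CPM in ApoD overexpression libraries and 71.5, 64.4 and 71.9 CPM in controls (log2 fold change 0.11 ± 0.11 SE, edgeR adjusted p = 0.443). ApoD overexpression library 2 was the lowest of the 6, and the groups overlapped. The sign of this change turned with the scaling and was −0.0061 with library totals. LSG1, the GTPase that releases NMD3 in the cytoplasm, had 68.0, 72.4 and 73.6 CPM with ApoD overexpression, against 51.5, 37.9 and 32.4 CPM in controls and rose by 0.81 ± 0.14 (SE, adjusted p = 0.000657). The difference between the 2 changes was not tested.

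Across all genes the fold change went with abundance, so the members were set beside genes of like counts. Of the 2833 tested genes with a mean count of 2000 to 5000, 38% were called higher and the median log2 fold change was 0.13; of the 26 members in that range 24 were called higher, with a median of 0.81. From 1000 to 2000 counts the share was 31.9% of 2548 genes, with all 13 members called higher and medians of 0.08 for the genes and 0.84 for the members. Above 5000 counts it was 45.3% of 1689 genes, with all 8 members called higher and a member median of 0.86. With offsets that remove each library's trend with abundance, 44 members were called higher and 0 lower, and their median was 0.70. Scaling by library totals moved the median of all tested genes by over 0.1, to −0.13, and called 36.8% of the changed genes higher instead of 49.6%; the test on log2(FPKM + 1) with no filter called 37% of them higher. A change of scaling shifts all genes nearly alike, so the members' median stood 0.83 above that of all genes under both scalings. With the abundance trend removed it stood 0.69 above. On log2(FPKM + 1), log2(FPKM + 0.1) and unfiltered log2(FPKM + 1) it stood 0.69, 0.76 and 0.66 above. With library totals 44 members were called higher.

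**Figure D3:**
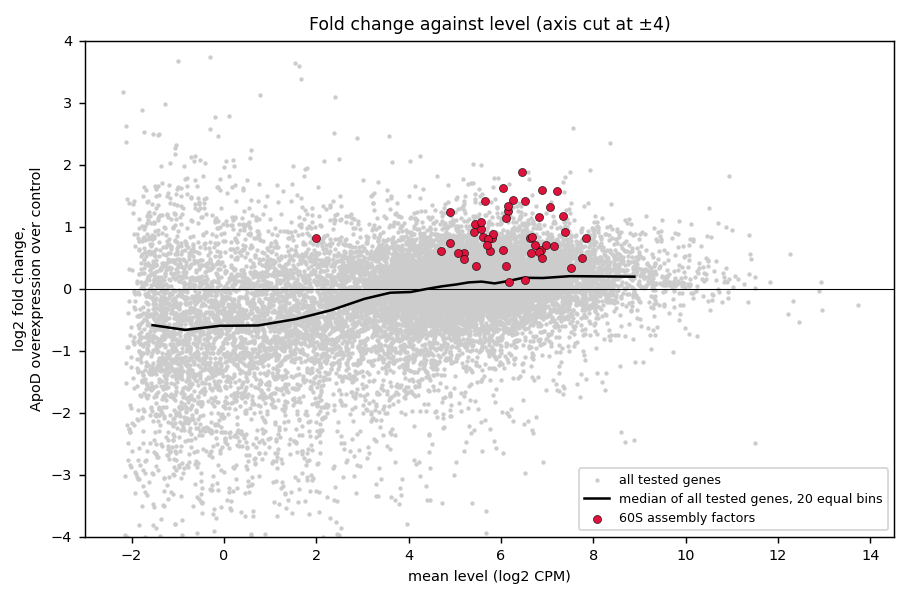
Mean level in log2 CPM (x axis) against log2 fold change of ApoD overexpression over control (y axis, cut at ±4) for all tested genes in grey and the 48 factors in red. The black line joins medians of all tested genes in bins of equal size; most red points lie well above it, and RSL24D1 and NMD3 lie near it.

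More of the 60S pathway was read from a further list of mostly 60S factors outside the 48. Of its 42 tested genes 37 rose and 1 fell, with a median log2 fold change of 0.75. Among all tested genes, 24.2% were called higher and 24.6% lower. PAK1IP1, MYBBP1A, DDX31, ZNF593, NAT10 and NCL rose the most, by 1.31, 1.18, 1.16, 1.08, 1.06 and 1.04. NAT10, which acetylates the 18S rRNA of the small subunit, is on this list although that role lies outside the 60S pathway. NCL encodes nucleolin, an abundant nucleolar protein, and had 1488 ± 102 CPM with ApoD overexpression and 721 ± 168 CPM in controls (SD, n = 3). NOP53, which brings the RNA exosome to the particle, was the 1 gene of this list that fell, with 91.4 ± 7.71 CPM with ApoD overexpression and 126 ± 11.3 CPM in controls (SD, n = 3; log2 fold change −0.46, edgeR adjusted p = 0.00268). It was lower in all 3 ApoD overexpression libraries than in any control. Of the 59 tested assembly factors of the small (40S) subunit 56 rose and 1 (RIOK3) fell, with a median of 0.81.

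The proteins of the large subunit itself are what the factors assemble. Of 47 large subunit ribosomal protein genes 8 were called higher and 0 lower, 17% called higher where 24.2% of all tested genes were. Their median log2 fold change was 0.09, and 37 were above 0. Above a mean of 5000 counts, where genes such as RPL3 lie, 45.3% of tested genes were called higher, with a median of 0.20. All 3 ApoD overexpression libraries lay above the controls for 19 of the 47 and below for 0, where 29% and 29.7% of tested genes were so separated. The summed level of the 47 was 43286, 51973 and 43596 CPM in the ApoD overexpression libraries and 42280.1, 44242 and 43566 CPM in controls, and these ranges overlapped. With library totals 4 of these genes were called higher and 3 lower, and with the abundance trend removed 1 and 9, so no direction is given for them. Many have processed copies that can share reads. No test of the difference between the assembly factors and the ribosomal proteins was made.

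**Figure D4:**
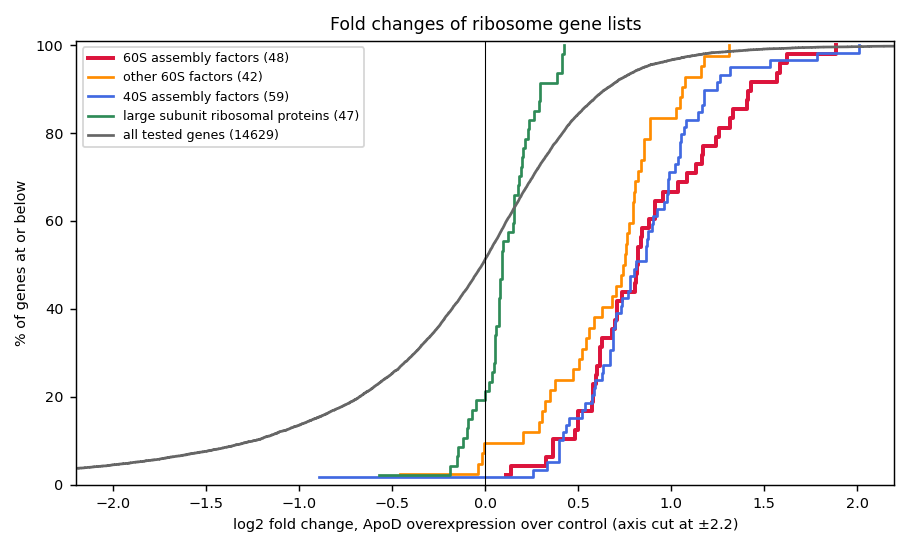
For each list, the percentage of its tested genes (y axis) at or below a log2 fold change of ApoD overexpression over control (x axis, cut at ±2.2). The curve of the 48 factors crosses 50% at 0.82, close to the curve of the 40S assembly factors at 0.81, and those of the ribosomal proteins and of all tested genes cross at 0.09 and −0.02.

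To compare levels between genes, FPKM was used, the authors' count scaled by gene length and by the library total. The order at the top depended on the group. With ApoD overexpression EBNA1BP2 was highest, at a mean of 130.5 FPKM, followed by NOP16, BRIX1 and NOC2L at 95.3, 84.9 and 76.5 FPKM. In controls BRIX1 was highest, at 59.97 FPKM, followed by RSL24D1, GNL3 and EBNA1BP2 at 48.1, 47.8 and 47.6 FPKM. The 3 control values of EBNA1BP2, from 39.4 to 63.2 FPKM, overlapped those of BRIX1, from 54.7 to 64.4 FPKM. PPAN was lowest in both groups, at 1.90 FPKM with ApoD overexpression and 1.17 FPKM in controls, and RRP15 was next, at 4.83 FPKM with ApoD overexpression and 2.22 FPKM in controls. The PeBoW subunits were uneven. PES1 averaged 63.9 FPKM with ApoD overexpression and 27.8 FPKM in controls, BOP1 70.0 FPKM with ApoD overexpression and 25.2 FPKM in controls, and WDR12 7.94 FPKM with ApoD overexpression and 4.93 FPKM in controls. The gene lengths behind these values were 2841, 2428 and 8068 bases, and for a gene whose common transcript is shorter than that length the FPKM is too low. Over the 48 members the log2 fold change had a Spearman rho of 0.14 with the mean FPKM and −0.17 with the length, as a description of genes measured in the same libraries.

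**Figure D5:**
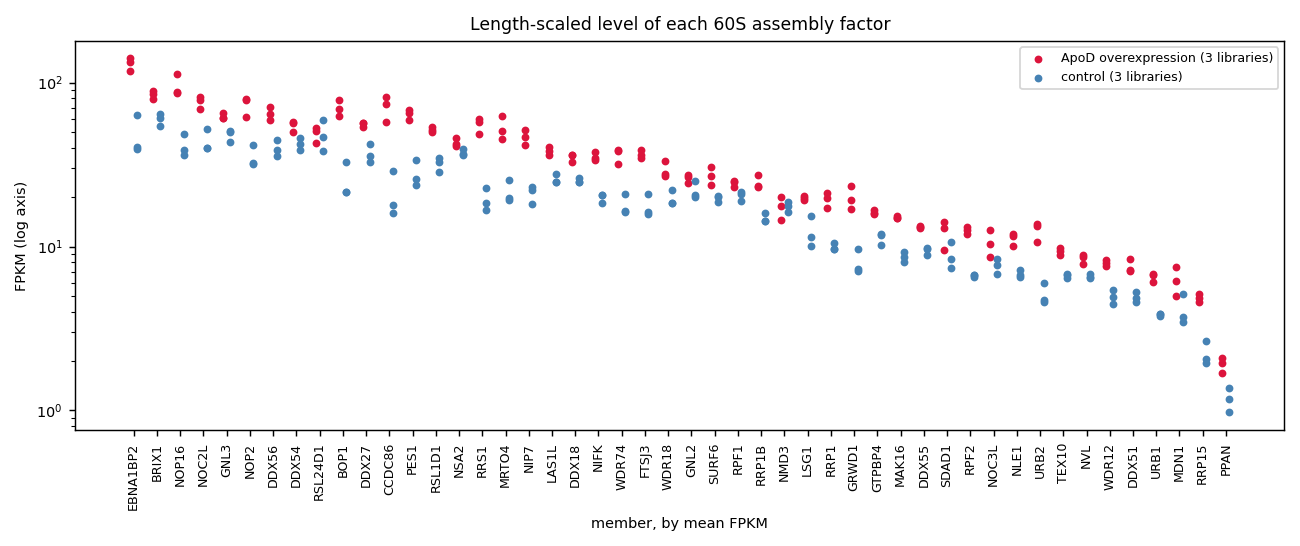
FPKM on a log axis (y) of each of the 48 factors (x axis) in every library, with ApoD overexpression in red left of control in blue. The order is by the mean over both groups, from EBNA1BP2 (130.5 FPKM with ApoD overexpression and 47.6 FPKM in controls) to PPAN (1.90 FPKM with ApoD overexpression and 1.17 FPKM in controls), and differs from the order within controls.

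Reads of other genes could enter these counts, since the strand setting of the authors' counting is not given in the sources used here. In GENCODE 29, exons of 32 of the 48 members overlap another gene, on the opposite strand for 26 and on the same strand for 10. By name alone (the symbol, P and a number), 13 members have copies, 9 for RSL24D1 and 8 for NIFK. Copies under other names were not counted. Of 18 overlapping neighbours that were tested, 6 rose and 2 fell, where 24.2% of all tested genes were called higher and 24.6% lower. Among the neighbours that rose were EMC1 beside MRTO4 and PSMC5 beside FTSJ3, and those that fell were CARF beside WDR12 and SAMD11 beside NOC2L. The 12 members with neither an overlap nor a named copy all rose, by 0.36 (RPF1) to 1.41 (URB2) on the log2 scale.

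Markers of other cell types were low but moved with the group. The 3 endothelial markers with a row, PECAM1, VWF and CDH5, summed to 1.35 to 2.30 CPM with ApoD overexpression and 8.0 to 13.3 CPM in controls, and all 3 fell; CDH5 had 1, 0 and 0 counts with ApoD overexpression and 86, 51 and 20 counts in controls. Of 5 fibroblast markers with a row, 2 were tested and both fell, and the summed level was 9.82 to 13.8 CPM with ApoD overexpression and 26.8 to 32.5 CPM in controls; DCN and LUM had at most 1 count in any library. The 4 immune markers summed to 36.7 to 38.6 CPM with ApoD overexpression and 15.8 to 32.9 CPM in controls. Nearly all of this was CD68, also a lysosomal gene of other cells. PTPRC had 0 counts in all 3 ApoD overexpression libraries and up to 12 in controls. Only 1 immune marker was tested, and it was called higher, with a log2 fold change of 0.57. Among all tested genes, 24.2% were called higher and 24.6% lower. The part of these markers in the rise of the 60S factors was not tested.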

How the data were processed

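RNA from 3 ApoD overexpression libraries and 3 control libraries of the 83 line was sequenced after extraction with RNeasy Plus and SMARTER mRNA library preparation, per the labels' protocols. The authors deposited raw counts and FPKM per gene, per the file headers; the sources used here do not give the aligner, counter, genome build or strand setting. All 108650 FPKM values above 0 equal the count over the library total and 1 length per gene, within a relative tolerance of 1e-06, so the deposited FPKM carry no other normalization. Every column was matched to a sample.

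Counts were tested with edgeR 4.0.16 in R 4.3.3 (quasi-likelihood test, two-sided, TMM scaling, filterByExpr with a minimum count of 10, group as the only term). This left 14629 of 21676 genes, and p-values were Benjamini-Hochberg adjusted over all of them, with a threshold of 0.05. The SE is the size of the fitted log2 fold change over the root of its F statistic. The procedure was tested on simulated data with far fewer changed genes than were called here and no trend of fold change with abundance. Library totals of 37542568 to 40416964 counts gave 47 of the 48 factors a mean over 1000 counts, so counting error was small for all but PPAN. Pairs of libraries within a group differed by a chi-square of 12.2 to 42.3 per degree of freedom, so no library was taken as a copy of another.

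The members and gene lists were chosen with earlier results of these data known. Values in every library were given for up to 3 called members with the largest change in each class, and for RRP1 and RRP1B; RPF2, RSL24D1, SDAD1, NSA2 and NMD3 were added after their values were seen. Alternatives in edgeR were relative log expression scaling, library totals, removal of the abundance trend, no filter and a replicate block. Others were the DESeq2 1.42.0 Wald test and limma 3.58.1 on log2(FPKM + 1), with and without a filter, and on log2(FPKM + 0.1). Each library was also left out in turn in edgeR. Promoters and their coordinates came from RefSeq's GRCh38.p14 table and gene overlaps from GENCODE 29, by symbol; no coordinate of the deposited files was used.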

Additional observations from a re-analysis of the deposited data

How the results depend on the processing

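The number of the 48 factors called higher was 41 to 46 under every alternative, and 0 were called lower in any of them. Their median log2 fold change was 0.70 with library totals, 0.70 with the abundance trend removed, 0.64 on log2(FPKM + 1), 0.70 on log2(FPKM + 0.1) and 0.64 on log2(FPKM + 1) with no filter, where 2317 genes were called higher; the cause was not tested. It was 0.76 to 0.90 with 1 library left out. RSL24D1 turned to −0.021 with the trend removed, and NMD3 to −0.0061 with library totals, −0.027 with the trend removed, −0.014 on log2(FPKM + 1) with and without the filter and −0.015 on log2(FPKM + 0.1); neither was called. Besides the losses given above for RPF1, GNL2 and NSA2, GNL2 lost its call in all 3 FPKM tests, and NSA2, NOC3L, SDAD1 and MDN1 in the unfiltered one. Libraries of the same number did not deviate together (correlations −0.20, −0.03 and −0.13). Deviations from a mean of 3 libraries per group cannot show whether the numbers pair them, so pairing is not known. With a replicate block 46 factors were called higher and 0 lower, with a median of 0.82. In that fit 3088 of all genes were called higher and 3260 lower. No library correlated best with its own number.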
